A study of Mus musculus with 2 samples.

Results

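Ribosome biogenesis, the making of new ribosomes in the nucleolus, is followed here through 32 mouse genes, the entries of a count table of 31053 genes whose symbol is on a list of ribosome biogenesis factors. Each of the 32 symbols matched 1 entry. The counts come from 14795 single bone marrow cells of C57BL/6 mice, sorted for c-Kit without Sca1 or Lineage markers. That gate is known to hold committed progenitors of the myeloid, erythroid and megakaryocyte lineages. There was 1 Control library of 6906 cells, pooled from 2 mice (1 of genotype Runx1f/f, the other Runx1f/-, with 1 Runx1 allele mutated in its germline), and 1 library of 7889 cells labelled Runx1 KO (called KO-labelled below). For the KO-labelled library, the sources used here name neither the number of mice nor the alleles, the age or the Cre driver, and a label that describes dissociated embryos conflicts with the hind-limb marrow named by the tissue and extraction labels, which were followed.

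RNA polymerase I copies the ribosomal DNA into a long precursor RNA. Small nucleolar ribonucleoproteins (snoRNPs) then modify it, the box C/D kind by ribose methylation and the box H/ACA kind by turning uridine into pseudouridine, and assembly factors cut and fold it with ribosomal proteins into the small and large subunits. In blood, dividing progenitors make many ribosomes, and inherited defects in the process are known above all for failure of red cell production.

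The members fall into 6 roles: RNA polymerase I (Polr1a, Polr1b, Ubtf), the small-subunit processome and small-subunit maturation (Heatr1, Wdr43, Wdr75, Nop14, Rcl1, Bysl, Rrp12, Nob1), box C/D snoRNPs (Fbl, Nop56, Nop58, Rrp9), box H/ACA snoRNPs (Dkc1, Nop10, Nhp2, Gar1), nucleolar scaffold and chaperone proteins (Ncl, Npm1, Nolc1, Ddx21, Mybbp1a) and large-subunit assembly (Bop1, Pes1, Wdr12, Nop2, Gnl3, Rrs1, Noc2l, Ppan). Their genes are spread over the genome. A feature that the list did not use is that 7 of the 32 (21.9%) carry small nucleolar RNA genes inside them on the GENCODE M21 annotation of GRCm38, against 259 of 21951 protein-coding genes (1.18%). The hosts are Nop56 with 5, Nop58 with 4, Ncl, Wdr43 and Gnl3 with 3 each, Ppan with 2 and Dkc1 with 1, in all 21 small nucleolar RNA genes, whose own RNAs are not polyadenylated messengers and are not counted here.

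Because most members differed in the same direction between the libraries in 2 of the cell classes described below, the sequence just before the start of the genes was searched for short motifs. RefSeq windows on GRCm38.p6, cut to the 250 bases before each annotated start, were at hand for 27 of the 32 members (35 windows, as some genes have several starts). The E-box CACGTG, the letters that Myc dimers bind, was in 1 of the 35 windows (2.86%), that of Nop2, against 6.02% of all 32851 windows. The Runx core TGTGGT was in 4 of the 35 (11.4%), those of Bysl, Heatr1, Nop56 and Pes1, against 14.0% of all windows. The ETS letters CCGGAAG were in 5 (14.3%), those of Gar1, Heatr1, Nhp2, Nolc1 and Nop2, against 6.91%, and the GC box GGGCGG in 21 (60%), those of 16 members, against 32.7%. Both strands were searched, and a match is only a run of letters. The windows below belong to the 3 members that are among the 4 farthest from 0 (log2 ratio) in Pf4 or in Car1, have an entry, and hold no exon of their own gene in the window: Nop10 at chr2:112261676-112261925, plus strand, Mybbp1a at chr11:72441077-72441326, plus strand, and Ddx21 at chr10:62602299-62602548, minus strand. Each is written from the far end toward the gene, with capitals for a motif match. The only match is the GC box of Mybbp1a, read on the other strand as CCGCCC.
Nop10: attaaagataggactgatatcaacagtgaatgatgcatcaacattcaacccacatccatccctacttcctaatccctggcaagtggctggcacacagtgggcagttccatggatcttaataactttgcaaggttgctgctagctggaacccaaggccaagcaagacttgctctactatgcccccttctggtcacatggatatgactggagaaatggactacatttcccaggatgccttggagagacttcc
Mybbp1a: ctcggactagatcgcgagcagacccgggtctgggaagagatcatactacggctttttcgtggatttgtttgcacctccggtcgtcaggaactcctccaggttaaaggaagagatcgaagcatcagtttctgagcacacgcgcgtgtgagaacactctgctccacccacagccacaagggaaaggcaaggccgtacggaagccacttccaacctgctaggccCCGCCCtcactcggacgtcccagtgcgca
Ddx21: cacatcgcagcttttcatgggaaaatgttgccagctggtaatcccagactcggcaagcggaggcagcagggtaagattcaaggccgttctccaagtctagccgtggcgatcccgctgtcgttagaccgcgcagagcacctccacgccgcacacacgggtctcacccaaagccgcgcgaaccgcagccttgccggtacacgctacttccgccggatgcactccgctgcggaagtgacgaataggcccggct

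Libraries were read as unique molecular identifiers (UMIs), 1 per captured RNA molecule. Control held 162278272 UMIs and the KO-labelled library 145590840, with medians of 21594 and 16092 per cell. The targeted gene, Runx1, went against the label: it had 143 CPM (counts per 1000000 of all UMIs) in Control cells and 361 in KO-labelled cells, a ratio of 2.53 (95% counting interval 2.49 to 2.57). That ratio is over all cells of each library, so it also moves with the mix of cell classes, and that part was not tested. The kit reads the 3′ end of transcripts, and the sources used here do not say which exons the allele removes, so these counts do not check the deletion. Cells are used in the 18 classes of the authors' annotation, each named by a gene or gene pair except that called Unannotated. The 8 gene-named classes with at least 100 cells in both libraries are compared: Pf4, Car1, Hba-a2, and 5 treated as myeloid here, CD34, Ly86, Gstm1/CD63, Gstm1/Ly86 and Fcnb. Unannotated cells (143 Control, 175 KO-labelled) also reached that number but were left out of the comparison of classes. The libraries share 13 barcodes, and without those cells the median log2 ratio of the measured members in Pf4 and Car1 was -0.42 and -0.24, as with them.

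For each class and library the UMIs of all its cells were added up and are given as CPM of that sum, so every value is a share of the class's RNA counts. With 1 library per genotype there is no spread between animals to set a difference against, and no test was made. The intervals printed are exact binomial 95% intervals for counting error only.

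Summed over all 32 members, the clearest difference lay in the Pf4 class, named for the platelet chemokine gene. The members made up 7379 CPM there in Control (222 cells) and 5176 CPM in the KO-labelled library (1782 cells), a ratio of 0.701 (0.693 to 0.710), or 29.9% lower. In the Car1 class, named for an erythroid carbonic anhydrase, they made up 8826 CPM in 2210 Control cells and 7294 CPM in 3003 KO-labelled cells, a ratio of 0.826 (0.823 to 0.830), or 17.4% lower. In the Hba-a2 class, named for alpha globin, they made up 11374 CPM in 294 cells and 9637 CPM in 318 cells, a ratio of 0.847 (0.841 to 0.854). The myeloid classes lay close to 1: the summed ratio was 0.961 in CD34, 1.02 in Ly86, 1.02 in Gstm1/CD63, 1.03 in Gstm1/Ly86 and 1.02 in Fcnb. Over all cells together the ratio was under 1 for 31 of the 32 members (49.8% of measured genes), with 30 counting intervals under 1 (41.2%) and 1 above (42.3%), and 0 members differed by 1.5-fold (1.65% of measured genes lower, 4.28% higher). Values over all cells also move with the mix of classes, as Pf4 held 222 Control cells and 1782 KO-labelled cells, and that part was not tested. The order of the classes was thus Pf4 lowest, then Car1 and Hba-a2, then CD34, then the later myeloid classes.

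These sums do not rest on the most abundant members alone. Npm1 and Ncl held 44.8% of the members' UMIs in the Control cells of the Pf4 class and 47.7% in those of the Car1 class. Over the other 30 members the ratio was 0.683 (0.672 to 0.694) in Pf4, 0.830 (0.824 to 0.835) in Car1, 0.978 (0.968 to 0.988) in Ly86 and 1.02 (1.01 to 1.03) in Gstm1/CD63. In Ly86 the sum thus lay above 1 with Npm1 and Ncl and below 1 without them.

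Counted gene by gene over all 32, the ratio of the KO-labelled library to Control was under 1 for 32 in the Pf4 class, where 51.7% of all measured genes were under 1. Genes counted as measured with at least 100 UMIs in all and 30 CPM in one library or the other. The counting interval lay wholly under 1 for 31 of the 32, against 32.2% of measured genes, and the exception was Nop2 at 0.884 (0.751 to 1.04). In the Car1 class the ratio was under 1 for 31 of the 32 (52.1% of measured genes) and the interval for the same number (39.5%), with 0 intervals above 1 (34.4%), the exception being Ubtf at 1.01 (0.976 to 1.05). The median ratio of the 32 was 0.704 in Pf4, with a range of 0.535 to 0.884, and 0.833 in Car1, with a range of 0.687 to 1.01.

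**Figure D1:**
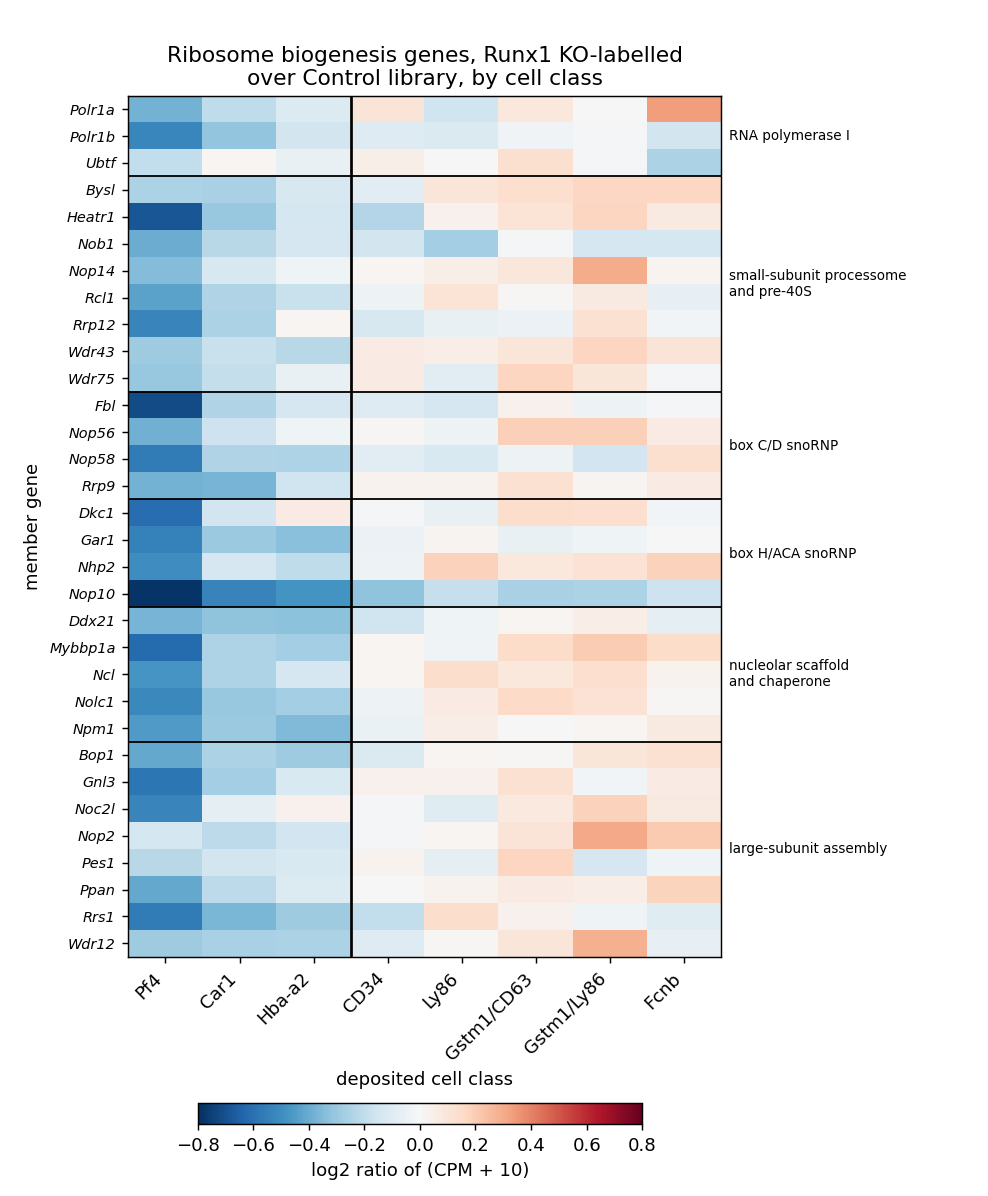
Heat map of the log2 ratio of CPM (KO-labelled library over Control, 10 CPM added to both) for the 32 members, grouped by role, in 8 cell classes, with blue for lower and red for higher in the KO-labelled library. The Pf4 column is blue for all 32 members, deepest for Nop10, Fbl and Heatr1, and the myeloid columns to the right of the heavy line are pale and of mixed colour.

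A stricter count asks for a 1.5-fold difference after adding 10 CPM to both values. In the Pf4 class 30 members were measured, all but Rrp12 and Polr1b, and 5 of them were lower by that margin: Nop10, Fbl, Heatr1, Mybbp1a and Dkc1. The share of all 4967 measured genes that were lower by it was 3.38%. No member was higher by that margin, against 7.15% of measured genes. The count of 5 depends on settings: it was 10 with mitochondrial, ribosomal protein and globin genes left out of the total (4.38% of measured genes), and 10 with each cell thinned to 5000 UMIs (4.86%). In the Car1 class 31 members were measured, and none differed by 1.5-fold in either direction, against 1.95% of measured genes lower and 3.67% higher. The Car1 members thus showed small differences, 30 of the 31 measured with a ratio under 1 and Ubtf just above it, and none reached the margin.

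Among the RNA polymerase I genes, Ubtf, which encodes the factor that opens ribosomal DNA for transcription, was the most abundant of the 3, and in the Pf4, Car1 and Hba-a2 classes it differed least. It had 169 CPM in Control cells and 146 in KO-labelled cells in Pf4, 139 and 141 in Car1, and 163 and 155 in Hba-a2. In the myeloid classes it had 119 and 123 in CD34, 101 and 101 in Ly86, 92.4 and 102 in Gstm1/CD63, 99.6 and 98.7 in Gstm1/Ly86, and 88.9 and 72.9 in Fcnb. Its lowest ratio was in Fcnb, at 0.820 (0.72 to 0.935), below that in Pf4 at 0.865 (0.799 to 0.937). The catalytic subunits were scarcer and lower in both classes: Polr1a had 30.4 and 21.1 CPM in Pf4 (ratio 0.695, 0.573 to 0.846) and 37.6 and 31.4 in Car1 (0.834, 0.778 to 0.894), while Polr1b had 29.1 and 17.2 in Pf4 (0.592, 0.484 to 0.727) and 37.5 and 28.1 in Car1 (0.750, 0.699 to 0.806).

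Of the small-subunit factors, Heatr1, a scaffold of the processome that forms on the growing precursor RNA, had the lowest ratio of all 32 members in Pf4. It had 43.5 CPM in Control cells and 23.2 in KO-labelled cells there, 47.8 and 36.8 in Car1, and 52.8 and 46.9 in Hba-a2. Across the myeloid classes it had 41.6 and 33.9 in CD34, 37.4 and 38.5 in Ly86, 36.4 and 40 in Gstm1/CD63, 37.3 and 43.3 in Gstm1/Ly86, and 29.7 and 31.7 in Fcnb. The Pf4 ratio was 0.535 (0.453 to 0.633) and the Car1 ratio 0.770 (0.723 to 0.820), and CD34 was the one myeloid class below 1 (0.815, 0.722 to 0.918).

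Wdr43, another early processome protein and the most abundant of this role, differed less. It had 126 and 102 CPM in Pf4, 149.7 and 131 in Car1, and 164 and 139 in Hba-a2. Among myeloid cells the values were 124 and 130.4 in CD34, 110.4 and 115 in Ly86, 118 and 127 in Gstm1/CD63, 119 and 135 in Gstm1/Ly86, and 96.2 and 104 in Fcnb. It was thus lower in the KO-labelled library in the Pf4, Car1 and Hba-a2 classes and higher in each myeloid class, with intervals wholly above 1 in both Gstm1 classes. The other 6 small-subunit genes had Pf4 ratios from 0.543 for Rrp12, a factor of subunit export, to 0.791 for Bysl, a factor of late small-subunit assembly. Rrp12 had few UMIs, 20.6 CPM in Control against 11.2.

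The box C/D genes encode the core of the methylation guide particles. Fbl, the methyltransferase itself, had 342 CPM in Control cells and 205 in KO-labelled cells in Pf4, 374 and 315 in Car1, and 429.8 and 391 in Hba-a2. Its myeloid values were 321 and 298 in CD34, 322 and 293 in Ly86, 282 and 289 in Gstm1/CD63, 318 and 309 in Gstm1/Ly86, and 211 and 209.5 in Fcnb. Its ratio was 0.599 (0.565 to 0.635) in Pf4 and 0.843 (0.825 to 0.862) in Car1. Its interval also lay below 1 in Hba-a2, at 0.91 (0.875 to 0.947), in CD34, at 0.928 (0.890 to 0.966), and in Ly86, at 0.907 (0.876 to 0.940).

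The partner scaffold proteins of the same particle differed by unequal amounts in the Pf4 class. Nop58 had 292 and 195 CPM there, a ratio of 0.668 (0.628 to 0.711), and Nop56 had 270.1 and 205, a ratio of 0.758 (0.712 to 0.809). Rrp9, a protein of the particle that guides early cleavage, was lower by a like factor in both classes. It had 46.4 and 33.4 CPM in Pf4, a ratio of 0.72 (0.617 to 0.843), and 69.7 and 51.7 in Car1, a ratio of 0.742 (0.704 to 0.782), which was the lowest in Car1 after Nop10. Elsewhere it had 66.9 and 58.9 CPM in Hba-a2, 42.3 and 43.3 in CD34, 33.8 and 34.6 in Ly86, 36.5 and 40.5 in Gstm1/CD63, 39.5 and 40.2 in Gstm1/Ly86, and 25.8 and 27.4 in Fcnb.

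The box H/ACA genes held the largest differences of any role in Pf4, with a median log2 ratio of -0.57 over the 4 genes, beside -0.22 in Car1. Nop10, the smallest protein of the pseudouridylation particle, had 532 CPM in Control cells and 304 in KO-labelled cells in Pf4, 591 and 406 in Car1, and 634 and 453 in Hba-a2. The myeloid classes had 529.8 and 421 in CD34, 545 and 479 in Ly86, 714 and 596 in Gstm1/CD63, 623 and 521 in Gstm1/Ly86, and 656 and 584 in Fcnb. Nop10 was lower in the KO-labelled library in each of the 8 classes. Its ratio ran from 0.571 (0.545 to 0.599) in Pf4 and 0.687 (0.674 to 0.699) in Car1 to 0.890 (0.849 to 0.933) in Fcnb.

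Dkc1, the pseudouridine synthase whose human counterpart is mutated in dyskeratosis congenita, differed mainly in Pf4. It had 229 and 147 CPM there, a ratio of 0.640 (0.597 to 0.687), against 233 and 208 in Car1, a ratio of 0.894 (0.870 to 0.919), and 241 and 253 in Hba-a2. The other particle proteins, Nhp2 and Gar1, had Pf4 ratios of 0.699 (0.659 to 0.742) and 0.669 (0.615 to 0.728). In 4 of the myeloid classes Nhp2 was higher in the KO-labelled library with intervals wholly above 1: Ly86 (301 and 343 CPM), Gstm1/CD63 (298 and 316), Gstm1/Ly86 (321 and 349) and Fcnb (248 and 284).

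Npm1, the nucleolar histone and ribosome chaperone, was the most abundant member in each of the 8 classes. It had 2036 CPM in Control cells and 1482 in KO-labelled cells in Pf4, 2695 and 2192 in Car1, and 3786 and 2959 in Hba-a2. In the 5 myeloid classes it had 2308 and 2220.3 in CD34, 2482 and 2574 in Ly86, 2405 and 2403 in Gstm1/CD63, 2607 and 2631 in Gstm1/Ly86, and 1923 and 2024 in Fcnb. Its ratio was 0.728 (0.711 to 0.745) in Pf4, 0.813 (0.807 to 0.820) in Car1 and 0.782 (0.771 to 0.793) in Hba-a2. Ncl, nucleolin, followed with 1272 and 914 CPM in Pf4 and 1512 and 1271 in Car1, ratios of 0.719 (0.698 to 0.740) and 0.840 (0.831 to 0.85), and it was higher in Ly86 (1143 and 1263), Gstm1/CD63 (1206 and 1280.2) and Gstm1/Ly86 (1242 and 1366).

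The other genes of the scaffold role were scarcer. Mybbp1a, a nucleolar protein that binds Myb, had 124 CPM in Control cells and 77.5 in KO-labelled cells in Pf4, 147 and 122 in Car1, and 179 and 146 in Hba-a2. Myeloid values were 122 and 123 in CD34, 104 and 101 in Ly86, 94.9 and 106 in Gstm1/CD63, 115 and 134 in Gstm1/Ly86, and 70.0 and 78.6 in Fcnb. The Mybbp1a ratio was 0.625 (0.568 to 0.689) in Pf4 and 1.12 (1.05 to 1.19) in Gstm1/CD63, on opposite sides of 1.

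Ddx21, an RNA helicase of the nucleolus, was among the 4 members with the largest log2 ratio in Car1, after adding 10 CPM. It had 150.3 and 114 CPM in Pf4, 182 and 143 in Car1, and 236 and 185 in Hba-a2. In the myeloid classes it had 134 and 119 in CD34, 123 and 120.2 in Ly86, 118 and 119 in Gstm1/CD63, 128 and 133 in Gstm1/Ly86, and 105 and 98.3 in Fcnb. The Ddx21 ratios of Pf4 (0.757, 0.695 to 0.826), Car1 (0.789, 0.764 to 0.815) and Hba-a2 (0.787, 0.744 to 0.832) overlap in their intervals.

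Among the large-subunit factors, Gnl3, the nucleolar GTPase nucleostemin, was the most abundant. It had 194 CPM in Control cells and 127 in KO-labelled cells in Pf4, 258 and 212 in Car1, and 321 and 294 in Hba-a2. Across the myeloid classes it had 199 and 204 in CD34, 167 and 171 in Ly86, 181 and 198 in Gstm1/CD63, 201 and 197 in Gstm1/Ly86, and 135 and 142 in Fcnb. The Gnl3 ratio was 0.652 (0.604 to 0.704) in Pf4 and 0.821 (0.80 to 0.843) in Car1.

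Rrs1, which helps bring a small ribosomal RNA particle into the large subunit, had 84.6 and 54.3 CPM in Pf4, 104 and 78.1 in Car1, and 107 and 85.8 in Hba-a2. Among myeloid cells the values were 89.5 and 77.0 in CD34, 90.4 and 101 in Ly86, 106 and 108 in Gstm1/CD63, 101 and 98.4 in Gstm1/Ly86, and 112 and 104 in Fcnb. Rrs1 thus had one of the larger differences in Car1, at 0.755 (0.723 to 0.788). The genes of the trimeric large-subunit complex, Bop1, Pes1 and Wdr12, had Pf4 ratios of 0.708, 0.831 and 0.805. The member with the least difference in Pf4 was in this role too: Nop2, an rRNA methyltransferase, with 40.5 and 35.8 CPM.

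**Figure D2:**
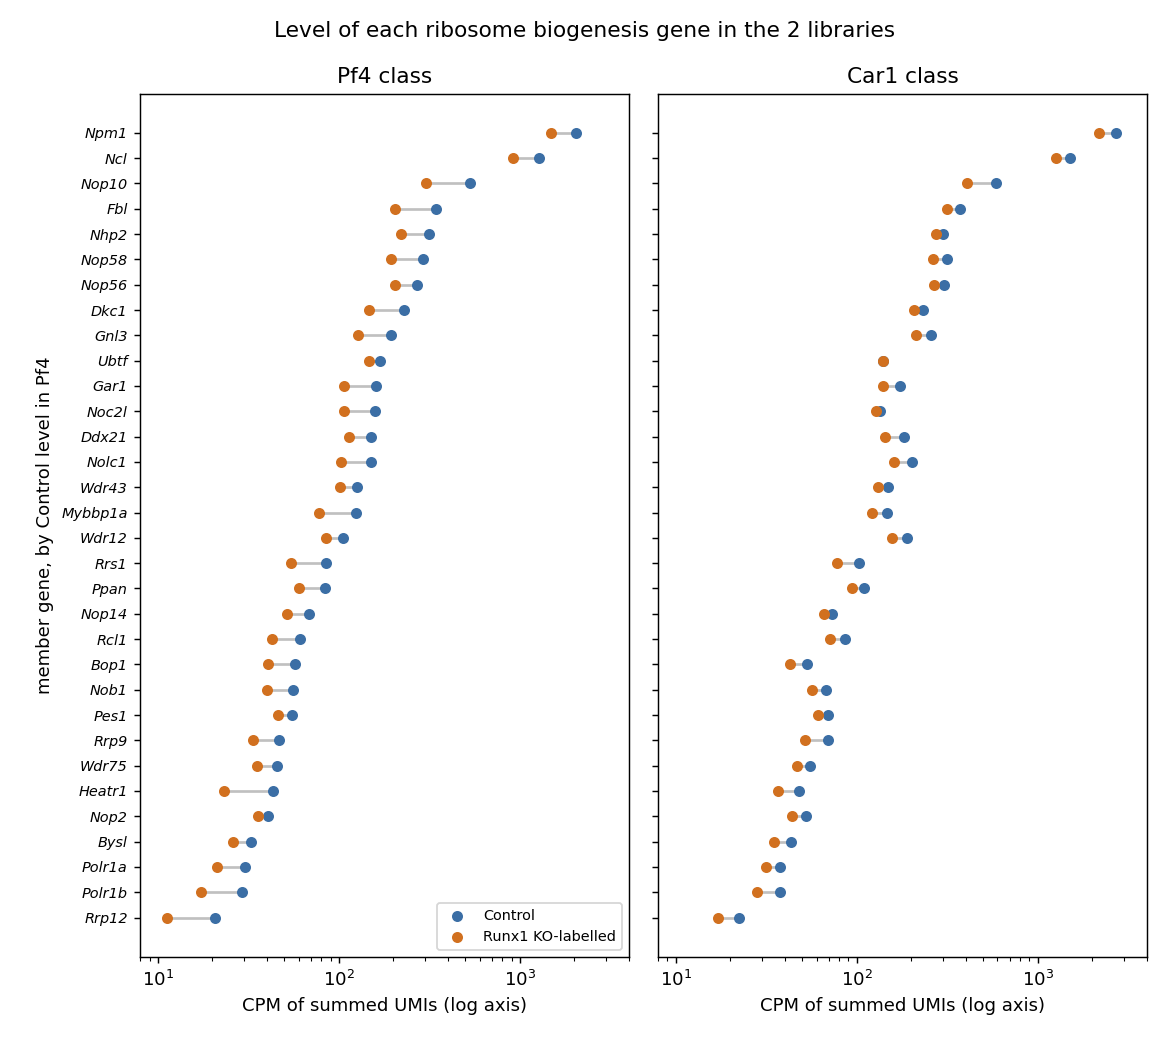
CPM on a log axis in either library (Control, KO-labelled) for each of the 32 members in the Pf4 and Car1 classes, 1 point per library, joined by a line. In Pf4 the KO-labelled point lies left of Control for all 32, as for Npm1 with 2036 and 1482 CPM, while in Car1 the pairs lie closer, as for Npm1 with 2695 and 2192, and those of Ubtf (139 and 141) nearly coincide.

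Set side by side, the log2 ratio after adding 10 CPM was lower in Pf4 than in each of the 5 myeloid classes for 31 of the 32 members, all but Ubtf. By the same measure Car1 was below all 5 for 29 members, all but Ubtf, Noc2l and Nob1. Pf4 was below Car1 for 30 members, all but Nop2 and Bysl (without the added 10 CPM, the Bysl ratio was 0.791 in Pf4 and 0.799 in Car1). For all 3364 genes measured in these 7 classes, the shares were 40.1%, 28.3% and 57.3%. Of the members, 26 were measured in the 7 classes, and the shares among them were 96.2%, 88.5% and 100%. The counts rest on the same 32 genes in cells of the same 2 libraries, so they describe these libraries and do not replicate each other. These genes were also chosen with earlier results of these data known.

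The myeloid classes differed among themselves. In CD34, the class with early progenitor genes, the ratio was under 1 for 21 of the 32 members (50.5% of measured genes) and the interval lay under 1 for 9 (24.4%) and above 1 for 0 (24.7%). In Ly86 the ratio was under 1 for 15 (51.1%), with 7 intervals under 1 (28.2%) and 6 above (28.3%). In Gstm1/CD63 only 7 ratios were under 1 (43.6%), with 1 interval under 1 (20.4%), that of Nop10, and 13 above (26.8%). In Gstm1/Ly86 there were 10 under 1 (44.2%), with 2 intervals under 1 (12.5%) and 10 above (15.3%), and in Fcnb 14 under 1 (50.5%), with 2 under (15.2%) and 5 above (13.8%). In both Gstm1 classes most members were therefore slightly higher in the KO-labelled library, with median ratios of 1.07 in each. No member reached 1.5-fold in either direction in a myeloid class. Measured genes lower and higher by that margin made up 1.37% and 2.85% in CD34, 0.817% and 2.19% in Ly86, 0.7% and 1.38% in Gstm1/CD63, 0.628% and 1.63% in Gstm1/Ly86, and 0.92% and 1.07% in Fcnb.

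The Hba-a2 class, the more mature erythroid cells, sat between. The ratio was under 1 for 29 of the 32 members (53.6% of measured genes), with 23 intervals under 1 (28.6%) and 0 above (23.7%), and none was lower (0.751%) or higher (1.8%) by 1.5-fold. Its cells also differed in quality: the share of cells in which mitochondrial UMIs reached 10% was 3.74% in Control but 13.5% in the KO-labelled library, and median UMIs per cell were 51294 and 37146. Its measured members had a median log2 ratio of -0.15, and in cells under 10% mitochondrial UMIs it was the same, -0.15.

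The levels themselves also have an order across classes, which the KO-labelled library does not share with Control. In Control the summed members were highest in Hba-a2 (11374 CPM) and Car1 (8826), followed by Gstm1/Ly86 (7765). Gstm1/CD63 (7384, 7344 to 7424) stood above CD34 (7303, 7268 to 7339), Pf4 (7379, 7299 to 7459.9) could not be ordered against either within counting error, and Ly86 (7230.1) and Fcnb (6031) came below. In the KO-labelled library Hba-a2 was again highest (9637), but both Gstm1 classes (7992 and 7524) and Ly86 (7362) stood above Car1 (7294), and Pf4 (5176) was the lowest of the 8. Of the single members, 28 had their lowest Control level in Fcnb and 2 in Pf4. In the KO-labelled library 18 had their lowest level in Pf4 and 14 in Fcnb. Hba-a2 was the highest class for 22 members in Control cells and 27 in KO-labelled cells.

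Gene-named classes outside the comparison held under 100 cells in at least 1 library. The basophil-named Prss34 class had 4529 CPM in 337 Control cells and only 1 KO-labelled cell. The Ltf class, named for a granule gene of maturing neutrophils, had the lowest sums of the members among classes with at least 50 cells in a library, at 1804 CPM in 50 Control cells and 1294 CPM in 221 KO-labelled cells.

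Per cell, the members' share of a cell's UMIs in Pf4 had a median of 0.682% in Control, with quartiles of 0.558% and 0.845%, and 0.471% in the KO-labelled library, with quartiles of 0.361% and 0.600%. The ranges overlapped, but the median Control cell lay above the upper quartile of the KO-labelled cells. In Car1 the medians were nearer, 0.744% and 0.672%, inside each other's quartiles (0.569% to 0.932% and 0.535% to 0.824%). In Ly86 they were 0.704% and 0.719%, and in Gstm1/CD63 0.726% and 0.742%.

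**Figure D3:**
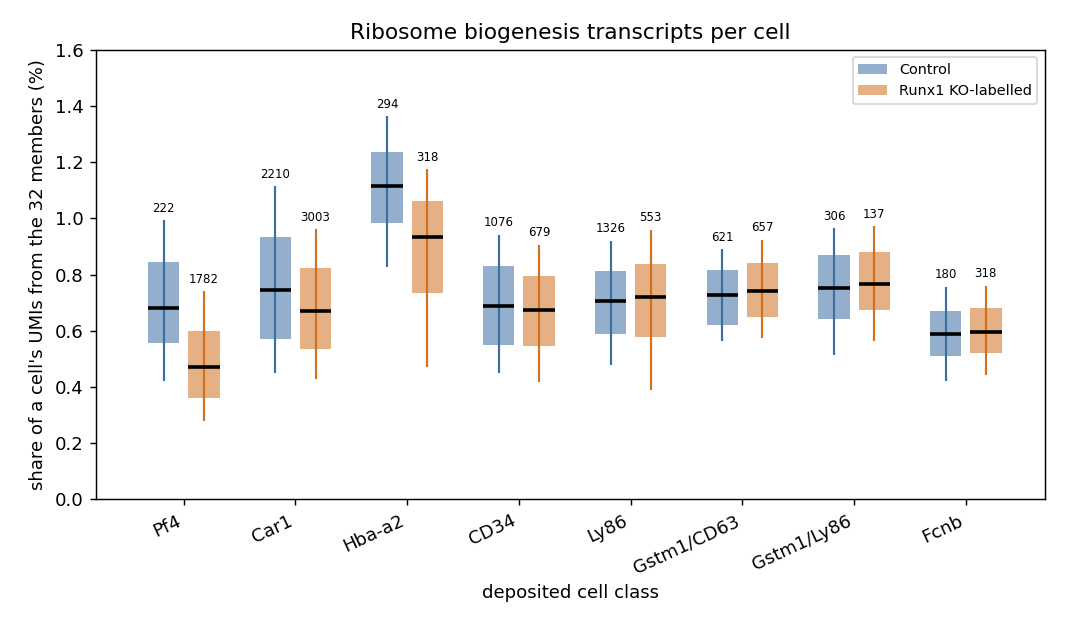
Share of each cell's UMIs from the 32 members, in percent, by class and library; boxes span the quartiles, the line in a box is the median, whiskers reach percentiles 10 and 90, and the number above is that of cells. The Pf4 class shows the largest shift of the 8, from a median of 0.682% in Control to 0.471% in the KO-labelled library.

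What else differed in these classes was measured beside the members. In the Pf4 class, 8 of 10 megakaryocyte markers reached 30 CPM, and their sum was alike in both libraries, 6345 CPM and 6699.9 CPM. Erythroid markers there summed to 396 and 386 CPM, early progenitor markers to 502 and 622, neutrophil progenitor markers to 191 and 215, and mature neutrophil markers to 10.3 and 95.1. The median share of S phase and G2/M genes was 0.785% of UMIs in Control cells and 0.474% in KO-labelled cells, and median UMIs per cell were 18342 and 13028. In the Car1 class, erythroid markers summed to 3545 and 1169 CPM (7 of 12 at 30 CPM) and megakaryocyte markers to 278 and 729 CPM (5 of 10). Early progenitor markers summed there to 529 and 507 CPM, neutrophil progenitor markers to 495 and 310.3, and mature neutrophil markers to 10.3 and 66.8. The cells annotated Car1 thus carried less erythroid and more megakaryocyte marker RNA in the KO-labelled library, while the median cycle share was 0.671% and 0.712%. Both marker shifts had the same direction in every other compared class, by unlike amounts. Megakaryocyte markers summed to 134 and 583 CPM in CD34, 24.6 and 125 in Ly86, and 14.6 and 146 in Hba-a2. Erythroid markers summed to 210 and 198 CPM in CD34, 59.3 and 36.2 in Ly86, and 7766 and 6518 in Hba-a2. The cause was not tested. The members' ratios were therefore also computed in subsets of cells. In Pf4 the median log2 ratio of the measured members was -0.38 in cells above the median cycle share and -0.44 in the others, beside -0.42 in all. In Car1 it was -0.31 above the median cycle share and -0.061 in the others, beside -0.24 in all, and it was -0.14 with every cell weighted alike and -0.13 with cells thinned to 5000 UMIs. The Pf4 cells at or below the median cycle share included only 54 from Control (948 KO-labelled), fewer than the 100 asked of a class. The Pf4 medians of the cells above and below were close to each other, while that of Car1 was larger in cells of high cycle share and smaller when deep cells did not weigh more.

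Cells of each class were ranked over both libraries by their share of megakaryocyte marker UMIs and divided into 3 equal sets, a split chosen after the data were seen. In Pf4 the summed ratio of the members was below 1 in each set: 0.858 (0.835 to 0.882) in the lowest, 0.729 (0.714 to 0.745) in the middle and 0.569 (0.558 to 0.580) in the highest. The KO-labelled cells had 5696, 5414 and 4352 CPM from the lowest set to the highest, and Control cells had 6639, 7422 and 7651. The Control sets held only 56, 78 and 88 cells. The highest set was not matched within, as its markers summed to 9624 CPM in Control and 14736 CPM in the KO-labelled library.

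In Car1 the same split gave another picture. The lowest set, which held 59.4% of Control cells and 14.2% of KO-labelled cells, had 9643 and 8895 CPM of members, with a ratio of 0.922 (0.915 to 0.93). The middle set had 6666 and 7046 CPM of them, with a ratio of 1.06 (1.05 to 1.07), above 1. The highest set, with 10.7% of Control cells and 50% of KO-labelled cells, had 7859 and 6865 CPM of them, with a ratio of 0.874 (0.864 to 0.884). Each ratio was thus nearer to 1 than the 0.826 of the whole class, and the set with the highest member level held most of the Control cells but few of the KO-labelled cells. The 17.4% lower level is that of the class as annotated, and the part of the mix of cells in it was not tested.

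**Figure D4:**
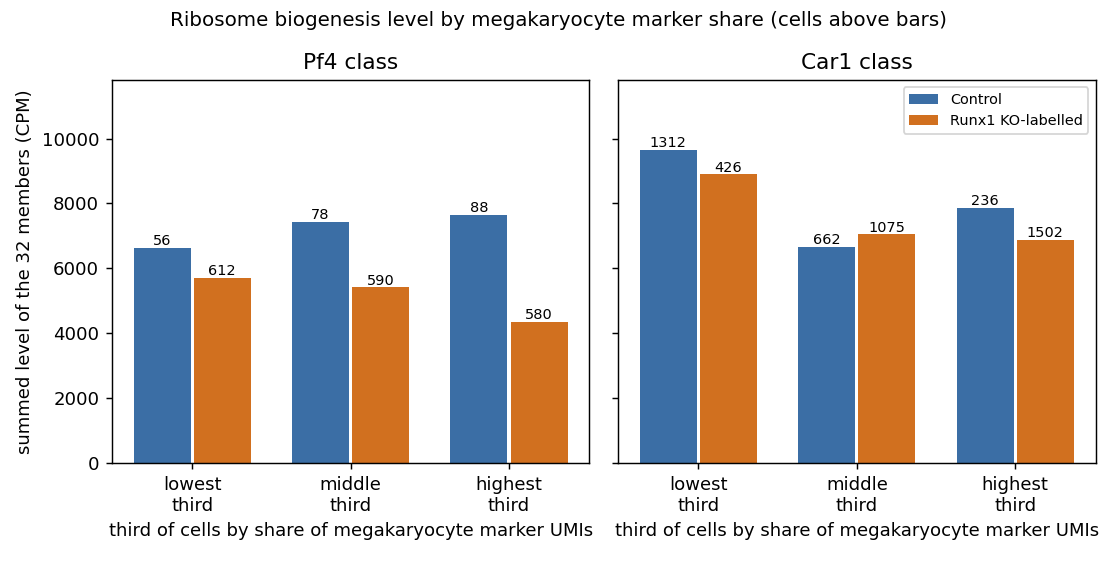
Summed CPM of the 32 members in either library (Control, KO-labelled) for cells of the Pf4 and Car1 classes, split into 3 equal sets by megakaryocyte marker share, with the number of cells above each bar and bars starting at 0. In Pf4 the KO-labelled bars are lower in each set, down to 4352 against 7651 CPM in the highest, whereas in Car1 the middle set has 7046 CPM against 6666 in Control.

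Like the members, a wider list of the same pathway was chosen with earlier results of these data known. It held a further 130 genes of ribosome biogenesis, none of them members. In Pf4, 100 of them were measured, with a median log2 ratio of -0.22, beside -0.42 for the members and -0.01 for all measured genes. By 1.5-fold, 5 were lower (3.38% of all measured genes) and 0 higher (7.15%). The lowest were Ltv1, a factor of small-subunit export, with 76.6 CPM in Control cells and 42.9 in KO-labelled cells, Ruvbl2, an ATPase that helps assemble snoRNPs, with 102 and 58.3, and Mdn1, the giant ATPase of large-subunit maturation, with 45.3 and 24.0. The highest was C1d, an exosome cofactor, with 185 and 257. In Car1, 111 were measured, with a median of -0.15 beside -0.24 for the members, and 0 differed by 1.5-fold (1.95% of measured genes lower, 3.67% higher). Mdn1 was lowest there with 64.5 and 44.1 CPM, followed by Utp4 (38.4 and 25.8), a processome protein, and Mrto4 (176 and 129), which acts in ribosomal stalk assembly, and C1d was highest with 122 and 167. In the myeloid classes the medians of this list lay between -0.01 (CD34) and 0.05 (Gstm1/CD63 and Fcnb).

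The ribosomal proteins themselves, which these factors assemble, lay nearer to 0. The cytosolic ribosomal protein genes (80 of 83 measured) had a median log2 ratio of -0.04 in Pf4 and 0.01 in Car1, with 0 genes past 1.5-fold, although Rpl35 was lower in both, with 1893 and 1294 CPM in Pf4 and 2158 and 1598 in Car1. Mitochondrial ribosomal protein genes had medians of -0.16 (69 measured, 1 higher by 1.5-fold) and -0.14 (70 measured, 0 past it). The gene farthest from 0 was Mrpl52 in Pf4 (147 and 225 CPM) and Mrps28 in Car1 (118 and 86.3). Translation factors (22 of 22 measured, 0 past 1.5-fold) had medians of -0.17 and -0.12, with Eif5b, which joins the subunits, higher in both (261 and 361 CPM in Pf4, 299.5 and 429 in Car1). Subunits of RNA polymerases II and III (16 of 22 measured) had medians of -0.26 and -0.16, and 1 was lower by 1.5-fold in both classes, Polr2l (51.2 and 29.0 CPM in Pf4, 51.2 and 30.6 in Car1). Of all measured genes, 3.38% were lower and 7.15% higher by 1.5-fold in Pf4, and 1.95% and 3.67% in Car1. Low genes of these lists were also met in other classes. The lowest log2 ratio on the polymerase list was -0.88 in Hba-a2, -0.64 in Gstm1/CD63 and -0.47 in Fcnb. It was -0.46 in CD34, -0.39 in Gstm1/Ly86 and -0.31 in Ly86. On the cytosolic ribosomal protein list the lowest ran from -0.46 in Ly86 to -0.39 in Hba-a2 outside Pf4 and Car1.

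Cycle genes had medians of opposite sign in the Pf4 and Car1 classes. In Pf4 the S phase list had a median of -0.30 (37 measured, 4 lower and 1 higher by 1.5-fold, against 3.38% and 7.15% of all measured genes). The G2/M list had one of -0.32 (42 measured, 3 lower and 0 higher), so both lay below 0 as the members did. E2f8, a repressor of the cycle's transcription, had 73.7 and 32.3 CPM and Ckap2l, a spindle protein, 113 and 30.7. In Car1 the medians were 0.05 and 0.19, above 0 while the members lay below, and 0 of the 38 and 36 measured genes passed 1.5-fold. There Blm, a DNA helicase, had 67.9 and 99.3 CPM and Kif23, a kinesin of cell division, 18.6 and 32.1. The p53 and nucleolar stress list, of which only 5 of 12 genes were measured in each class, had medians of 0.21 and 0.12 and 0 genes past 1.5-fold. Mdm2, the ubiquitin ligase of p53, had 40.3 and 56.7 CPM in Pf4, and Ccng1, a p53 target, 51.5 and 42.5 in Car1.

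Myc, the transcription factor best known for driving ribosome biogenesis genes, was itself lower in the KO-labelled library in both classes. It had 105 and 47.1 CPM in Pf4, a ratio of 0.451 (0.404 to 0.503), 206 and 140.0 in Car1, a ratio of 0.679 (0.658 to 0.70), and 122 and 119 in Hba-a2. In the myeloid classes Myc had 188 and 151 in CD34, 130.3 and 103 in Ly86, 143 and 139 in Gstm1/CD63, 149.9 and 161 in Gstm1/Ly86, and 103 and 89.7 in Fcnb. Its ratio was lowest in Pf4, as for the members, but was also under 1 in Ly86 (0.791, 0.746 to 0.838), where the members' sum was not. In Hba-a2 Myc had 122 and 119 CPM, beside a summed ratio of the members of 0.847. In CD34 Myc had 188 and 151 CPM, beside a summed ratio of the members of 0.961. Whether Myc bears on the members' levels was not tested. The Myc network and growth list as a whole had a median of -0.13 in Pf4 (15 measured, 2 lower and 2 higher by 1.5-fold, against 3.38% and 7.15% of all measured genes). Its median was -0.07 in Car1 (14 measured, 1 lower and 0 higher, against 1.95% and 3.67%). Farthest from 0 were Mxd1, a Myc antagonist, with 8.46 and 33.7 CPM in Pf4, and Odc1, the first enzyme of polyamine synthesis, with 220.0 and 141 in Car1.

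**Figure D5:**
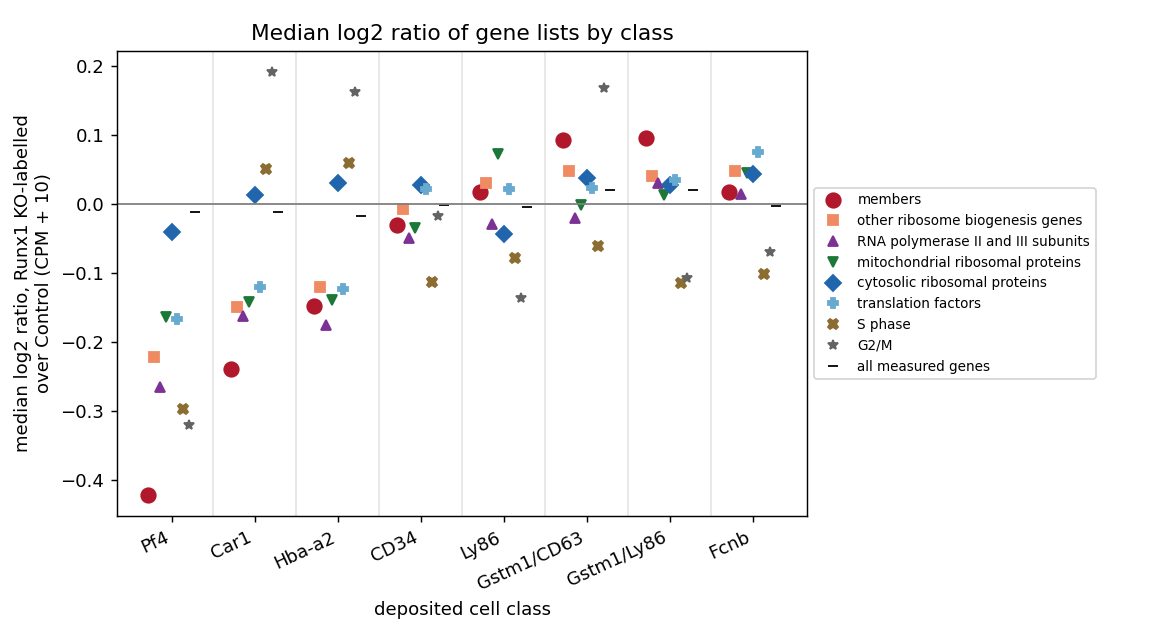
Median log2 ratio (KO-labelled library over Control) of the measured genes in the members' list, the wider ribosome biogenesis list and 6 other gene lists, with that of all measured genes, for each of 8 cell classes. The members have the lowest median of the lists in Pf4 (-0.42) and Car1 (-0.24), and cytosolic ribosomal proteins lie near 0 in both (-0.04 and 0.01). The members and lists were chosen with earlier results of these data known, so this order is only a description.

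The pattern over all 16 combinations of class and library was shared by most members. Over log2 CPM, each of 26 members measured throughout was set against the mean of the others, and the median Pearson correlation was 0.92. Gnl3 was closest to the rest at 0.98, and Nop10 (0.19) and Rrs1 (0.23) were the least alike. Nop10 had its highest levels in the Gstm1/CD63 and Fcnb classes, and Fcnb was the lowest class in Control for 28 members. Outside the list, the 5 genes most like the mean of the members, of 3095 genes compared, were Timm10 (0.96), Gpatch4 (0.96), Ruvbl1 (0.95), Pus1 (0.95) and Tcp1 (0.95). The 16 points share 2 libraries and their depth, so these correlations are a description.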

How the data were processed

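Single-cell libraries were made with the 10x Genomics 3′ kit, version 3, per the labels. The submitters' processing notes name Cell Ranger and mm10, without versions or settings. The deposited matrix holds counts, UMIs per gene and cell, and its sum equalled the authors' annotated UMIs in all 14795 cells. The authors' deposited cell table adds detected genes, the mitochondrial fraction, size factors (a ratio of UMIs) and, as other values, each cell's library and class. No deposited cell had under 1000 detected genes, and the highest mitochondrial share was 76.1%. The sources used here do not say how classes were assigned or doublets treated, and no cell was removed. The library called WT in the annotation was taken to be Control.

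UMIs were summed per class and library with Python 3.11.15, pandas 2.3.3 and scipy 1.17.1, and scaled to CPM. Depth per class ranged from 3281226 to 49700115 UMIs, which sets the counting intervals. Log2 ratios used a pseudocount of 10 CPM. Since each gene's molecules are counted by their end, no length scaling was applied. The ratios and counting intervals were tested on counts simulated from the Pf4 and Car1 classes with known 1.5-fold differences. That simulation held no spread between cells or mice and did not test classes or lists. The members and lists were chosen with earlier results of these data known. Named were, by fixed rule, the members farthest from 0 in Pf4 and in Car1 and the most abundant of each role, the extremes of each list, and Myc. Nhp2, Gar1, Ncl and other members with partial values were chosen after their values were seen. Alternatives were another pseudocount, minimum, scaling, denominator, fold, weight per cell, thinning, and subsets of cells.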

Additional observations from a re-analysis of the deposited data

How the results depend on the processing

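No paired analysis was possible because each genotype has 1 library. Over 14 other settings the median log2 ratio of the measured members in Pf4 (-0.42 as reported) stayed below 0, between -0.73 in the highest set by megakaryocyte markers and -0.21 in the lowest. The number of Pf4 members at least 1.5-fold lower (5) was 10 with mitochondrial, ribosomal protein and globin genes left out of the total (4.38% of measured genes), 10 with cells thinned to 5000 UMIs (4.86%), 1 in the lowest set (2.78%) and 21 in the highest (8.6%), and it was 23 where a ratio of 4 to 5 was enough (14.5%) and 0 at 2-fold (0.644%). In Car1 (-0.24) the median was -0.14 with every cell weighted alike, -0.13 when thinned, -0.31 in cells above the median cycle share and -0.061 in the others, -0.18 in cells with more erythroid than megakaryocyte UMIs, -0.10 in the lowest set, -0.19 in the highest and 0.085, in the opposite direction, in the middle set. The cause was not tested. With a ratio of 4 to 5 as the threshold, 3 members were lower in Car1 (6.77% of measured genes), 4 in Hba-a2 (4.62%), 1 in CD34 (4.61%) and 1 over all cells (5.24%). In cells at or below the median cycle share the median was 0.077 in CD34 and -0.051 over all cells, and thinned cells of Ly86 gave -0.063. Both Gstm1 classes, Fcnb and Hba-a2 kept their direction in all 9 settings tried.

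Ubtf, the one member above 0 in Car1, lay below 0 in 4 settings there. Single members kept their sign in 443 of 448 values in Pf4 and 414 of 448 in Car1. In Pf4 the opposite direction was met by Bysl (0.082) at low cycle share, Wdr12 (0.041) and Nop14 (0.023) in the lowest set and Ubtf (0.043) in the middle, and by Nop2 (0.057) in thinned cells. In Car1 it was met by Nhp2 (0.055) in thinned cells, by Nhp2 (0.17), Rcl1 (0.0047), Noc2l (0.022), Mybbp1a (0.039) and Nop14 (0.028) at low cycle share, by Noc2l (0.017) in the lowest set, and by Nop14 (0.013) and Wdr75 (0.014) in the highest. In the middle set of Car1 it was met by Ncl (0.17), Npm1 (0.13), Fbl (0.087), Nop56 (0.12), Dkc1 (0.055), Nhp2 (0.26), Rrp9 (0.032), Wdr43 (0.095), Polr1a (0.18), Polr1b (0.10), Bop1 (0.0503), Pes1 (0.091), Nolc1 (0.15), Nop2 (0.19), Gnl3 (0.10), Rcl1 (0.15), Bysl (0.082), Ppan (0.20), Mybbp1a (0.14), Rrp12 (0.054) and Nop14 (0.11). The sets by megakaryocyte markers and the run without shared barcodes were chosen after the data were seen. Counts limit the scarce members most, such as Rrp12 and Polr1b in Pf4, and nothing here measures the spread between mice.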
